A study of Caenorhabditis elegans with 2 samples.

Results

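The genes rpr-1 and mrpr-1 of Caenorhabditis elegans encode the RNA subunits of the endonucleases RNase P and RNase MRP. Both were selected on the anti-GFP ChIP-seq values described here: a region of the authors' lists had its summit within 250 bp of each gene. They are 2 of the 1370 short RNA genes annotated on the nuclear chromosomes, a class taken here as tRNA, snRNA, snoRNA, rRNA, miRNA, Y RNA and these 2 genes. Their presence in the lists and their signal values are therefore given as a description, with no test. The samples were 2 biological replicates of 1 group, whole hermaphrodite young adults of strain OP543 collected 64 hours after synchronization of starved L1 larvae. The strain stably carries a transgene for the protein SDZ-38 with a GFP-FLAG tag at its C terminus. The sample descriptions name an antibody against GFP for the precipitation, while the antibody field reads sdz-38. There was no second condition, and no library from worms without the tagged protein is analysed here, so whether a region marks SDZ-38 itself was not tested. A peak list holds no expression values, so the labelled tissue could not be checked against markers.

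RNase P removes the 5′ leader of precursor tRNAs and is found in every domain of life. RNase MRP, a relative found in eukaryotes, takes part in the maturation of ribosomal RNA, and the 2 enzymes share most of their protein subunits in yeast and mammals. In vertebrates both RNAs are made by RNA polymerase III from promoters that lie wholly upstream of the gene, with a TATA box and a proximal sequence element that is bound by the snRNA-activating protein complex. Most tRNA genes, by contrast, carry their promoter boxes inside the transcribed sequence. In C. elegans the snRNA-activating protein complex also serves snRNA and piRNA genes.

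mrpr-1 (WBGene00045095) lies on the plus strand of chromosome II at 7200233 to 7200418 in build ce11 (WBcel235) and is 186 bp long with a GC content of 53.2%. The sequences of the gene and of the DNA before it are shown because the summits fell within the gene, while the letters it shares with other genes of the lists lay upstream. They are written from the RefSeq assembly in 5′ to 3′ direction of the plus strand. In the 100 bases before the gene (chrII:7200133-7200232), capitals mark a 33-base segment and the word TATATAA, both compared with other genes further on.
mrpr-1 upstream: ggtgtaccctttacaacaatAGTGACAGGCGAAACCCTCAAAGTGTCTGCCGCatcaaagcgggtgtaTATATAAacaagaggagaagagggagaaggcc
In the gene itself (chrII:7200233-7200418), the capitals mark from left to right the summits of replicate 2, of the pooled and optimal lists, and of replicate 1.
mrpr-1 gene: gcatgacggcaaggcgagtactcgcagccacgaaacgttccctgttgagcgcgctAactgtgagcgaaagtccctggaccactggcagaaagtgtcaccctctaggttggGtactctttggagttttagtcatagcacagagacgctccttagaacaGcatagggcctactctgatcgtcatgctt
Across the 3′ end (chrII:7200409-7200438), capitals mark a run of 4 T, the letter at which RNA polymerase III ends transcription, of which 2 are the last bases of the annotated gene. Unmarked runs of 4 T also stand within the gene as printed and further on in this stretch. Where transcription ends was not tested.
mrpr-1 3′ end: cgtcatgcTTTTgcaacattttgaaagtcg

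rpr-1 (WBGene00045238) lies on the plus strand of chromosome I at 13463955 to 13464207 and is 253 bp long with a GC content of 51.0%. A run of 5 T spans its 3′ end, 2 of them within the annotated gene. The reference calls both genes unclassified non-coding RNAs, so their enzyme is known here from the gene names. All 223 words of 31 bases in rpr-1 and all 156 in mrpr-1 occurred at 1 place in the reference genome, so reads of that length from within either gene have 1 exact match. The longest word that the transcribed parts share is 9 bases long.

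The regions came from 4 lists, which the authors' notes call peaks and background for each replicate, the same made from both replicates (here the pooled list), and the optimal list that passed their irreproducible discovery rate step. They held 17743 regions for replicate 1, 12648 for replicate 2, 1242 for the pooled list and 102 for the optimal list, of which 17727, 12628, 1221 and 81 were nuclear. The nuclear regions of a list all had 1 width, between 456 and 484 bp, with the summit at the centre. The signal value is the authors' own score for a region, on a scale that is not stated, so it was read mainly by rank and by ratio within a list. The same regions were listed at both genes in the pooled and the optimal lists, so these do not count as separate measurements. Alignments are not analysed here, and the read depth behind each region is unknown.

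At rpr-1 the signal was near the top of every list. Its region in the optimal and pooled lists (I:13463779-13464234) had a signal value of 117 and was at rank 3 among nuclear regions in both. In replicate 1 the region I:13463820-13464303 had a signal value of 72.1 and was at rank 3 of 17727. In replicate 2 the region I:13463705-13464168 had a signal value of 54.3 and was at rank 8 of 12628. The gene thus stood within the top 0.0169% of nuclear regions in replicate 1 and the top 0.0634% in replicate 2. Relative to the strongest nuclear region, its signal was 0.71 in the pooled list, 0.696 in replicate 1 and 0.657 in replicate 2. A second region of replicate 2 (I:13463906-13464369) overlapped the first, with a signal value of 31.3 and rank 94.

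At mrpr-1 the signal was lower in all 4 lists. Its region in the optimal and pooled lists (II:7200115-7200570) had a signal value of 66.9, rank 55 of 81 nuclear peaks in the first and of 1221 nuclear regions in the second. In replicate 1 the region II:7200148-7200631 had a signal value of 33.4 and rank 165. In replicate 2 the region II:7200056-7200519 had a signal value of 40.9 and rank 28. The gene stood within the top 0.931% of nuclear regions in replicate 1 and the top 0.222% in replicate 2. Its signal was 2.03 times the median nuclear region in replicate 1 and 2.64 times in replicate 2, where rpr-1 had 4.37 and 3.51 times. Within the optimal list, made of the strongest regions, mrpr-1 was slightly below the median peak, at 0.95 times its signal.

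The ratio of the rpr-1 to the mrpr-1 signal value was 1.75 in the optimal and pooled lists, 2.16 in replicate 1 and 1.33 in replicate 2. Between the 2 genes stood 51 regions of the pooled list, 161 of replicate 1 and 19 of replicate 2. rpr-1 was the stronger in both replicates. Set against the strongest nuclear region of the same list, rpr-1 had 0.696 in replicate 1 and 0.657 in replicate 2, and mrpr-1 had 0.323 and 0.495. Set against the median nuclear region, rpr-1 had 4.37 and 3.51 times its signal, and mrpr-1 had 2.03 and 2.64 times. How alike the replicates were at each gene thus depended on the scale used. Over both replicates the signal value was 63.2 ± 12.6 (SD, n = 2) for rpr-1 and 37.1 ± 5.3 (SD, n = 2) for mrpr-1, without overlap between the genes. The strongest nuclear region had 104 in replicate 1 and 82.6 in replicate 2, so the lists may differ in scale, and the SD holds that difference too. The column that the file layout gives to −log10 q values stood at its maximum for the strongest rpr-1 region of every list. The maximum was shared by 62 to 90 regions of a list. It was 0.9 in the optimal and pooled lists, 0.859 in replicate 1 and 1.14 in replicate 2. These are low for −log10 q values, so the maximum is not read as high significance. For mrpr-1 the column stood at the maximum in replicate 2 alone, at 1.14, and was 0.857 in the pooled list and 0.772 in replicate 1.

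**Figure D1:**
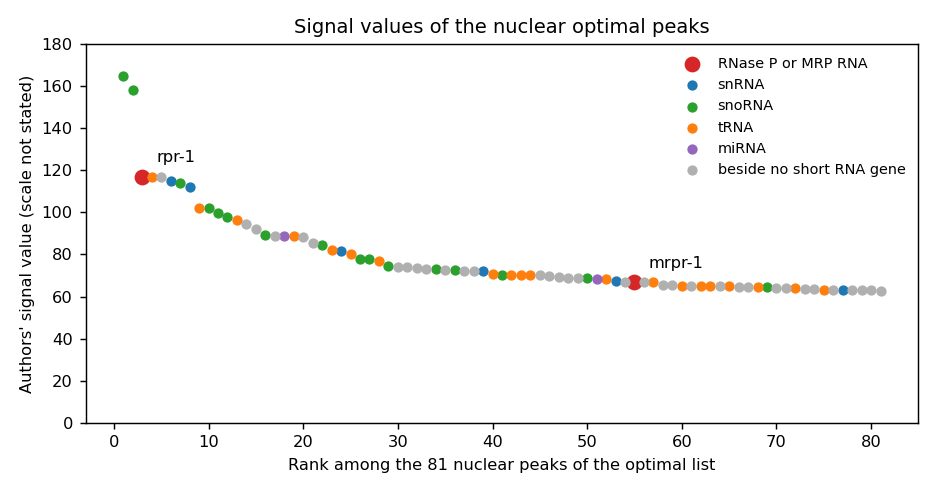
Authors' signal value (vertical axis, scale not stated) of the 81 nuclear peaks of the optimal list against their rank (horizontal axis), coloured by the class of a short RNA gene within 250 bp. rpr-1 is at rank 3 with 117, level with the 2 peaks after it, and mrpr-1 is at rank 55 with 66.9, on the flat part of the curve.

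By rank, rpr-1 differed less between the replicates (3 and 8) than mrpr-1 (165 and 28), and by signal value it did not. The signal of replicate 1 over that of replicate 2 was 1.33 for rpr-1 and 0.817 for mrpr-1. The counts below tell how high the peaks stood in both replicates rather than how well the replicates agreed. Of the 81 nuclear optimal peaks, 80 had a region in both replicates. Of these 80, 4 were within the first 8 nuclear regions of both replicates, namely rpr-1, the peaks at the snoRNA genes ZK994.7 and C51F7.4, and a peak on X beside no short RNA gene. Only the 2 snoRNA peaks were at least as high as rpr-1 in each replicate. At or above mrpr-1 in each replicate stood 19 of the 80 peaks, itself included, and 45 lay within the first 165 of both.

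**Figure D2:**
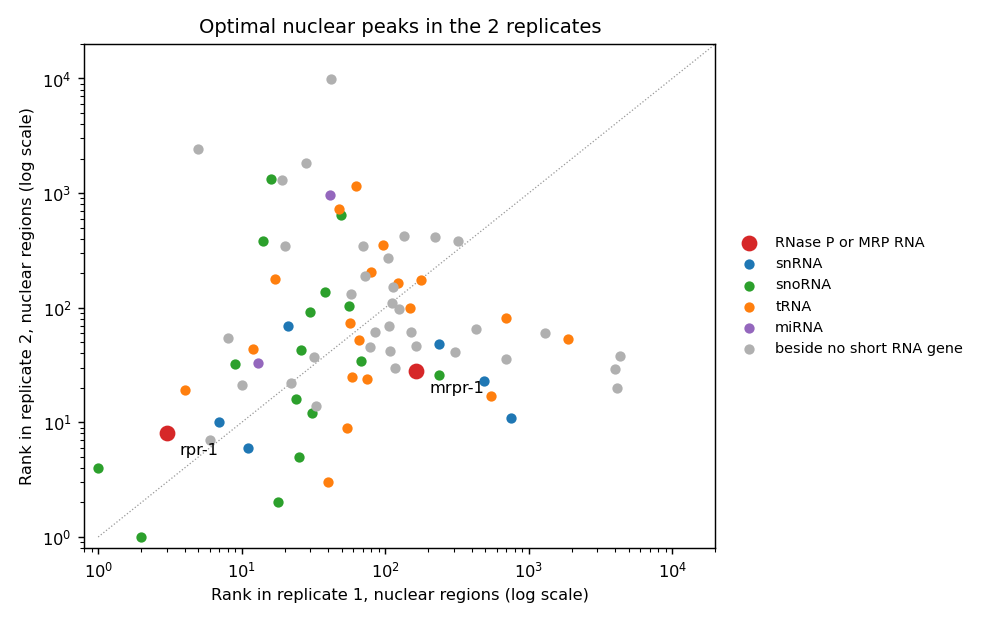
Rank among nuclear regions in replicate 1 (horizontal axis) and replicate 2 (vertical axis), both on log scales, of the 80 nuclear optimal peaks found in both replicates; the dotted line marks equal ranks. rpr-1 lies at ranks 3 and 8 near the lower left corner and mrpr-1 below the line at ranks 165 and 28.

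The strongest region of each list had its summit inside the transcribed part of the gene, except at rpr-1 in replicate 2. Positions are counted from 1 at the 5′ end of the gene. In rpr-1 the summit was at position 53 in the optimal and pooled lists, 20.9% along the gene, and at position 108 in replicate 1, 42.7% along. In replicate 2 the stronger region had its summit 18 bp before the gene and covered 84.6% of it, and the weaker one had its summit at position 184, 72.7% along. The pooled and replicate 1 summits thus lay between the 2 summits of replicate 2. In mrpr-1 the summit was at position 111 in the optimal and pooled lists, 59.7% along the gene, at position 158 in replicate 1 (84.9%) and at position 56 in replicate 2 (30.1%). Every mrpr-1 region covered the whole gene.

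**Figure D3:**
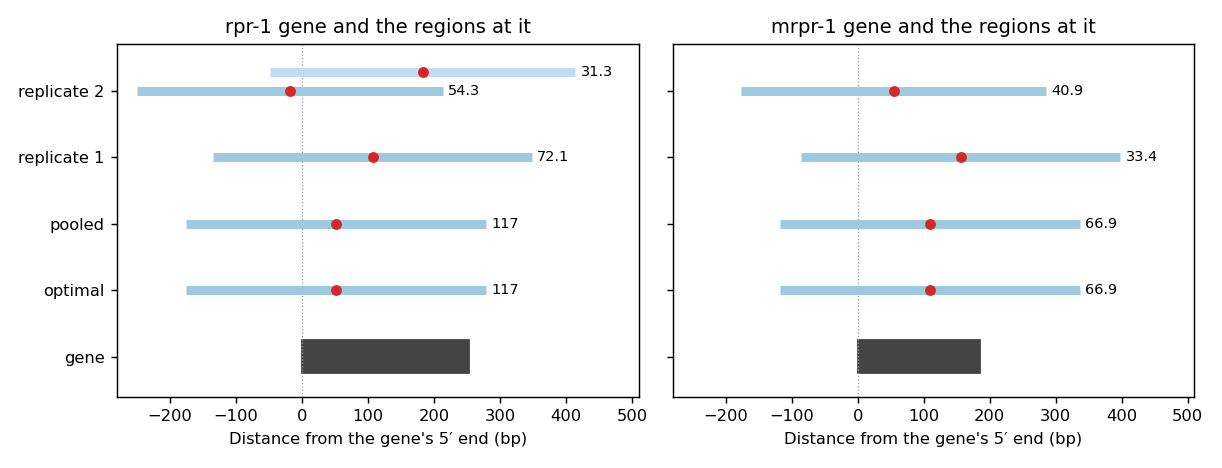
Regions of each list (pale bars) with their summits (red points) at rpr-1 and mrpr-1, drawn to scale by distance from the 5′ end of the gene in bp; the dark bar is the gene and the number beside each region is its signal value. At both genes the replicate 1 summit lies downstream of the strongest replicate 2 summit, and replicate 2 has a second region at rpr-1 with a signal value of 31.3.

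The replicate 1 summit lay 125 bp further along the chromosome than that of replicate 2 at rpr-1, and 102 bp further at mrpr-1. Over the other 78 nuclear optimal peaks in both replicates the same difference had a median of 10 bp and ranged from −213 to 189 bp. Of these, 16 had summits 102 bp or more apart in either direction, and 6 of the 43 beside other short RNA genes did. Both differences were within the range of all the other peaks. Beside other short RNA genes on the plus strand, the strand of both genes, the difference had a median of 21.5 bp (n = 22). It ranged there from −131 to 67 bp, so rpr-1 and mrpr-1 were both above that range. Beside those on the minus strand (n = 21) it ranged from −153 to 152 bp. The 2 replicate 2 regions at rpr-1 were not particular to it, as 16 of the 81 nuclear peaks held 2 or more summits of replicate 2.

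Within 5000 bp of either gene the optimal and pooled lists had no other summit. At rpr-1 the replicate 1 list had none either. Replicate 2 had 1 other there besides the second region, 1126 bp downstream, with a signal value of 15.4 and rank 6486. The nearest other summit of replicate 1 was 5947 bp downstream, with a signal value of 14.6. Within 5000 bp of mrpr-1 replicate 1 had 2 summits and replicate 2 had 3, with the 1 at the gene included. Beside mrpr-1, the nearest other summit of replicate 1 was 574 bp upstream (signal value 16.6, rank 8635) and that of replicate 2 was 745 bp upstream (12.9, rank 12231). How common this is over the genome was not measured. In the pooled list the nearest other summit was 82444 bp away from rpr-1 and 18641 bp away from mrpr-1. Of the summits within the 250 bp used to choose the genes, the farthest lay 18 bp outside a gene, and the nearest one left out lay 574 bp away.

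The genes sit in different surroundings. rpr-1 lies in intron 6 of ints-8, which encodes a subunit of the Integrator complex that cleaves nascent snRNA transcripts. ints-8 is on the minus strand at I:13455356-13470371, so host and guest are read in opposite directions. The intron runs from 13462739 to 13464761, a length of 2023 bp. The 5′ end of ints-8 is 6416 bp from the 5′ end of rpr-1. It had no summit within 1000 bp in the optimal and pooled lists, 1 in replicate 1 (14.6, rank 13360, 217 bp away) and 1 in replicate 2 (26.9, rank 276, 55 bp away). The flanking genes Y48G10A.6, of unknown function, and ndrr-1, described as an NDRG3 protein, are 11109 and 6384 bp away and held no summit in any list, neither within them nor within 1000 bp of their 5′ ends.

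mrpr-1 lies between protein-coding genes and in none. To its right pcrg-1, which encodes a homolog of the Parkin coregulated gene protein, starts 131 bp after the end of mrpr-1 and is read in the same direction. To its left the uncharacterized gene E04F6.6 is read in the opposite direction from a 5′ end 668 bp away. The mrpr-1 summit thus also lay within 1000 bp of both 5′ ends in all 4 lists, and by distance alone the region cannot be assigned to mrpr-1 rather than to the start of pcrg-1. The summits themselves fell inside mrpr-1 in every list. Over all 19971 nuclear protein-coding genes, 0.205% had one at that distance of the 5′ end in the optimal list, 2.98% in the pooled list, 31.6% in replicate 1 and 23.9% in replicate 2.

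Both genes were in all 4 lists by the way they were chosen. Among the 1370 nuclear short RNA genes, 51 (3.72%) had a summit within 250 bp in the optimal list and 218 (15.9%) in the pooled list. In the replicates 513 (37.4%) and 467 (34.1%) did. In the optimal list these were 7 of 129 snRNA genes (5.43%), 17 of 346 snoRNA genes (4.91%), 23 of 612 tRNA genes (3.76%), 2 of 260 miRNA genes (0.769%) and 0 of 20 rRNA genes. The rpr-1 signal value of 117 was above that of every snRNA peak in the optimal list, where the highest was 115, and below that of 2 of the 16 snoRNA peaks. The highest tRNA peak had 117 as well and was next in rank. mrpr-1, at 66.9, was below the median of the snRNA (76.9), snoRNA (81.1) and tRNA peaks (70.1).

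Among the optimal peaks next in rank, the one above rpr-1 was stronger, and the others had nearly the same signal value as the gene. Above rpr-1, with 158, was the peak at the snoRNA gene C51F7.4 in frm-7 (V:12303399-12303854). Below it, with 117, was the peak at the tRNA-Ala gene F15G9.t1 in him-4 (X:9743469-9743924). Above mrpr-1, with 67.1, was a peak at X:17419547-17420002 that lay in no gene and had the 5′ end of osm-11 1693 bp away. Below it, with 66.9, was a peak in lips-10 at II:8441479-8441934, 1060 bp from the 5′ end of eif-3.G, a translation initiation factor.

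Short RNA genes were also compared by their ranks in all 4 lists, as the summed absolute difference in log10 rank. The 4 lists share the same libraries, so these are 4 readings of 2 samples. Most like rpr-1 were the adjacent tRNA-Ala genes F15G9.t1 and F15G9.t2 on X, which share 1 region with ranks of 4 in the optimal, pooled and replicate 1 lists and 19 in replicate 2 (summed difference 0.75). Next was the snRNA gene W05B2.8 at III:10989679-10989780 (1.07), with ranks 6, 6, 7 and 10 and signal values of 115, 115, 63.2 and 50.5. Most like mrpr-1 was sls-2.8 at III:12250465-12250575 (0.589), one of the genes for the SL2 spliced leader RNAs that are joined to mRNAs from operons. Its ranks were 53, 53, 488 and 23. Like mrpr-1 it stood higher in replicate 2, a likeness that follows from the choice by rank. The snoRNA gene Y43F8C.22 (0.607) and the tRNA-Asp gene F38G1.t2 (0.67) followed.

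The genes for the protein partners of the 2 RNAs were counted beside all protein-coding genes. Of 6 genes whose reference description names a subunit of RNase P or RNase MRP, 0 had a summit at that distance of the 5′ end (1000 bp) in the optimal or pooled list and 2 did in each replicate. Of all protein-coding genes 0.205%, 2.98%, 31.6% and 23.9% had one in the optimal, pooled, replicate 1 and replicate 2 lists, and no difference from these shares is read from 6 genes. H35B03.2, the p30 subunit gene, had a summit in both replicates, with a signal value of 22.2 (rank 2232) in replicate 1 and 13.0 (rank 11954) in replicate 2. Y62E10A.24, for subunit p20, had one in replicate 1 with 15.2, and Y37E11AM.4 had one in replicate 2 with 13.3. popl-1, popl-4 and popl-5 had none in any list. The p30 value in replicate 1 was below both RNA genes, at 72.1 and 33.4.

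Other genes linked to these RNAs stand beside the same shares of all protein-coding genes. Of 15 genes for transcription by RNA polymerase III, which are polymerase subunits, initiation factors and the repressor mafr-1, 0 were in the optimal or pooled list, 1 (snpc-1.4) was in replicate 1 and 2 (rpc-11 and snpc-3.4) were in replicate 2. Of 11 Integrator subunit genes, 0 were in the optimal or pooled list, 2 in replicate 1 and 4 in replicate 2, with ints-8 in both. At shares of 0.205% and 2.98% of all protein-coding genes, nothing is read from 0 genes in the optimal and pooled lists. Among other RNAs made by RNA polymerase III, the 16 rrn-4 genes for 5S rRNA had 0 genes in the optimal and pooled lists and in replicate 2, and 1 (rrn-4.15) in replicate 1. The Y RNA gene yrn-1 (IV:7499508-7499612) had a summit in replicate 2 alone, with a signal value of 22 and rank 1039. Over all short RNA genes the shares were 3.72%, 15.9%, 37.4% and 34.1% in the optimal, pooled, replicate 1 and replicate 2 lists. Whether reads from the rrn-4 genes have 1 match in the genome was not checked, so their counts are not read as a lack of signal.

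The upstream DNA of the 2 genes was alike, a measure the choice of genes did not use. In an ungapped alignment of the 120 bases before each gene, a stretch of 33 bases had 24 identical letters. It starts 80 bases before mrpr-1 and 78 bases before rpr-1, and in both it is followed after 15 bases by TATATAA, which starts 32 bases before mrpr-1 and 30 bases before rpr-1. The 33 mrpr-1 letters were then compared with the same 120 bases before every other gene, on the strand of the gene, and the best match was kept. A match of 20 or more of the 33 letters was found before 85 of the 1370 short RNA genes (6.2%), both genes included, and before 16 of the 19971 protein-coding genes (0.0801%). It was found before 46 of 129 snRNA genes (35.7%), 33 of 346 snoRNA genes (9.54%), 3 of 260 miRNA genes (1.15%) and yrn-1. None of the 612 tRNA and 20 rRNA genes had one. The minimum of 20 letters was chosen after the matches were seen. Since the segment is the best alignment of rpr-1 with mrpr-1, the matches of these 2 genes were set by that choice.

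**Figure D4:**
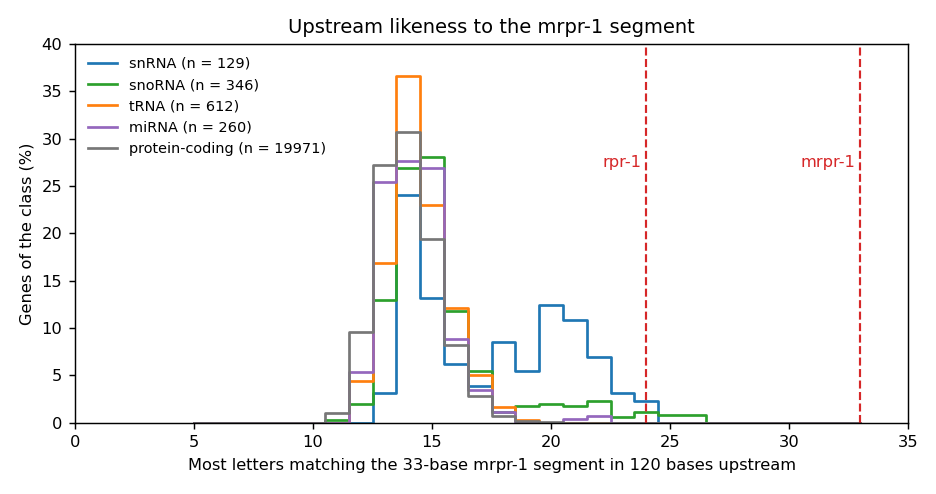
Share of the genes of each class in percent (vertical axis) by the largest number of letters that matched the 33-base mrpr-1 segment within the 120 bases upstream (horizontal axis). Dashed lines mark rpr-1 with 24 letters and mrpr-1 with all 33. Both values follow from the choice of the segment as the best alignment of these genes. The 5 classes drawn have a main group of genes near 14 letters, and snRNA genes, with fewer snoRNA genes, have a further group from 18 letters upward.

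In the other 83 genes the segment started at a median of 71 bases before the gene, and in 73 of them between 82 and 68 bases before it. Of the 85 genes, 8 were in the optimal list. The segments of these other than rpr-1 are shown in the direction of the gene, to set side by side the letters kept at genes of unlike product and unlike signal. Capitals mark letters that are the same as in mrpr-1, and the sequences are of build WBcel235.
mrpr-1 (chrII:7200153-7200185, plus strand): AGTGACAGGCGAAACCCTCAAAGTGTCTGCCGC
ZK994.7, snoRNA (chrV:8500487-8500519, plus strand): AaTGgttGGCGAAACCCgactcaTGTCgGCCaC
C08D8.3, snoRNA (chrV:8349039-8349071, plus strand): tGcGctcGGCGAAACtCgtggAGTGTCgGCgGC
Y55F3BR.9, snoRNA (chrIV:867171-867203, minus strand): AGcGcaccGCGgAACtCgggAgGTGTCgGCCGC
sup-6, snRNA (chrII:12945003-12945035, minus strand): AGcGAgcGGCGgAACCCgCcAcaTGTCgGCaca
W05B2.8, snRNA (chrIII:10989600-10989632, plus strand): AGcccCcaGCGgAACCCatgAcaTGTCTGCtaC
sls-2.8, snRNA (chrIII:12250394-12250426, plus strand): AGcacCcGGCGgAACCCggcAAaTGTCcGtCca
These 6 genes matched in 20 or 21 letters, and their optimal peaks had ranks from 1 (ZK994.7, signal value 165) to 53 (sls-2.8, signal value 67.5).

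The short RNA genes with the most letters of mrpr-1 were not in the optimal list. They were 3 snoRNA genes with 26 letters each. Of these T06D8.11 was at rank 541 of the pooled list, and the others were in neither the optimal nor the pooled list. Of the 85 genes with the segment, 9.41% had a summit in the optimal list, 23.5% in the pooled list, 47.1% in replicate 1 and 42.4% in replicate 2. Of the 1285 short RNA genes without it, the shares were 3.35%, 15.4%, 36.8% and 33.5%. The first set holds rpr-1 and mrpr-1, which were selected for their summits. Without them, 6 of 83 genes with the segment (7.23%) had a summit in the optimal list. The share with a summit in the optimal list was 7.81% for 18 or more letters and 4.88% for 22 or more, where the 2 genes of 41 were rpr-1 and mrpr-1 themselves. Within the snRNA genes the shares were 6.52% of 46 with the segment and 4.82% of 83 without it in the optimal list, and 15.2% and 10.8% in the pooled list. Within the snoRNA genes they were 9.09% of 33 and 4.47% of 313 in the optimal list, and 33.3% and 12.5% in the pooled list. tRNA genes, which had none, made up 20 of the 81 nuclear optimal peaks.

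TATATAA was rarer than the segment before short RNA genes and more common than the segment before protein-coding genes. It was found on the strand of the gene in the last 50 bases before 29 of the 1370 short RNA genes. The same held for 393 of the 19971 protein-coding genes, which is much the same share. The segment and TATATAA stood together before 15 short RNA genes and 0 protein-coding genes. The 15 are rpr-1, mrpr-1 and 13 snRNA genes, and in all 15 the letters between segment and TATATAA numbered 15. Of these, 3 had a summit in the optimal list, namely rpr-1, mrpr-1 and W05B2.8, one of the 3 genes most like rpr-1 by rank. The pooled list added F54D8.7, at rank 569. In replicate 1 a summit was found at 7 of the 15 and in replicate 2 at 4. Leaving out rpr-1 and mrpr-1, which were selected for their summits, the counts were 1 of 13 in the optimal list, 2 in the pooled list, 5 in replicate 1 and 2 in replicate 2. Over all short RNA genes the shares were 3.72%, 15.9%, 37.4% and 34.1%, and no difference from them is read from 13 genes. Genes with this arrangement thus ranged from rank 3 in replicate 1 to no region in any list. Whether their words occur at 1 place in the genome was checked for rpr-1 and mrpr-1 alone. A lack of a region at the 13 snRNA genes, some of which lie close together, is therefore not read as a lack of signal.

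The summits lay downstream of the segment rather than on it. Summits of the 2 replicates were 125 bp apart at rpr-1 and 102 bp apart at mrpr-1, so the distances that follow are approximate. From the centre of the segment to the summit was 114 bp in the pooled list at rpr-1, 169 bp in replicate 1 and 44 bp in replicate 2. At mrpr-1 it was 174, 221 and 119 bp. The segment was inside each of these regions, and outside the second replicate 2 region at rpr-1, whose summit was 245 bp away. Searched on both strands from 250 bases before to 50 bases after the 5′ end, TATAAA was found in mrpr-1 and not in rpr-1, and it occurred in 27.5% of short RNA genes and 37.9% of protein-coding genes. TATA, which TATAAA and TATATAA contain, was found in both genes, in 68.1% of short RNA genes and in 72.2% of protein-coding genes. Each of 3 words of 6 bases, taken from earlier results on the summits of these lists, was in neither window. Of the summits at the 2 genes, only the replicate 2 summit 18 bp before rpr-1 lay inside the window. The words were not searched for at the other summits, so nothing about the summits is read from their absence. GCGCCA stood in 13.8% of short RNA genes and 4.99% of protein-coding genes. For AGTGGC the shares were 12% and 5.56%. For CCACTC they were 14.7% and 6.77%.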

How the data were processed

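ChIP-seq of 2 biological replicates was read from the region lists of build ce11, 1 for each replicate and 2 made from both. Per the file notes, regions come from the authors' alignments and one control alignment. Which aligner and peak caller made them is not given in the sources used here. Column 7 was deposited by the authors as a signal value, a score of unstated scale, used for ranks within a list. The deposited −log10 q column was described and filtered nothing. The p column was −1 in all regions and was not used. Lists of build ce10 were not used here.

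Genes came from the RefSeq annotation of WBcel235, whose chromosome lengths hold all region ends. Positions are 1-based. Ranks are among nuclear regions. Ties of a gene to a region used the strongest summit within 250 bp. Shares count annotated genes. The scan of the 33-base segment took the best ungapped position in 120 upstream bases. Python 3.11.15, pandas 2.3.3 and NumPy 2.4.6 were used. The summit distance, the position count and the finding of a planted segment were tested on simulated data. The planted segment was shorter than 33 bases. Ranks, counts and the minimum of matching letters were not tested in this way. Genes were named by a rule: both genes, their host and flanking genes, the 3 genes most like each by rank, subunit genes with a summit, and optimal peaks next in rank; others were named after their values were seen. The members and lists were chosen with earlier results of these data known. U6 snRNA and signal recognition particle RNA genes were planned as lists and were not made, since the annotation does not name them by product. Other alternatives tried were distances of 100 and 500 bp, overlap with the gene, and 18 or 22 matching letters.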

Additional observations from a re-analysis of the deposited data

How the results depend on the processing

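No paired analysis was possible because there is 1 group and no comparison between groups. With mitochondrial regions ranked too, rpr-1 moved from rank 3 to 24 in the optimal and pooled lists, from 3 to 19 in replicate 1 and from 8 to 28 in replicate 2, since the 16 to 21 mitochondrial regions of each list stood above it. Short RNA genes with the upstream segment numbered 85, and 128 with 18 or more matching letters or 41 with 22 or more; these alternatives were chosen after seeing the data. Leaving out 1 replicate gave signal values of 54.3 to 72.1 for rpr-1 and 33.4 to 40.9 for mrpr-1. Distances of 100 and 500 bp and overlap with the gene left the ranks of both genes as they were, and moved counts of short RNA genes by less than 1.5 times. For mrpr-1 the mitochondrial regions moved the rank from 55 to 76 in the optimal and pooled lists, from 165 to 181 in replicate 1 and from 28 to 48 in replicate 2. Ranking by the p column was not run, since it holds 1 value throughout. Depth is unknown, and with 2 replicates the SD is itself imprecise.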
